A study of Mus musculus with 18 samples.

Results

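Dppa3, Fbxo15, Tcl1, Pecam1 and Jam2 are genes used to mark naive mouse pluripotent stem cells or products that the egg leaves to the embryo. They were taken as a given list of 5 genes out of 35773 in the count tables, by matching gene identifiers to symbols, and all 5 were among the 16901 genes with enough counts to be tested. RNA-seq of polyA RNA covered 18 samples, with 3 replicates in each of 6 groups. ESCs were naive cells kept in 2i/LIF, and AFSCs were primed cells derived from blastocysts and kept in activin A and bFGF without feeder cells. ASCs were made from AFSCs in ABCL medium, which holds activin A, BMP4, the Wnt pathway agonist CHIR99021 and LIF, and ESC-ASCs were ESCs moved into that medium. EpiLCs (epiblast-like cells) and EpiSCs (epiblast stem cells) stood for later states of the epiblast. All samples carried the strain label 129S2/SvPasCrl and the genotype wild type. The study worked with AFSC lines that carried GFP reporters, GOF-GFP in one and Stella-GFP in another, and which line was sequenced is not given in the sources used here. Stella is another name of Dppa3, so fragments from that reporter, if present, could not be told apart from those of the gene. Nothing in the labels says whether replicates were separate cultures, so p-values measure the spread between these samples, which may be technical. The chi-square per degree of freedom between 2 replicates grows as they differ beyond counting error. It ran from 1.61, for ESC replicates 2 and 3, to 92.1, for AFSC replicates 1 and 2. In ESCs, ASCs, AFSCs and EpiLCs replicate 1 stood apart from the other replicates. The samples of a group may not be equally independent, and p-values could then be too small.

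Dppa3 encodes a small nuclear protein that the oocyte stores and that shields the maternal genome from demethylation after fertilization. It is also expressed in the inner cell mass and in primordial germ cells. Fbxo15 encodes an F-box protein, the kind of subunit that brings substrates to SCF ubiquitin ligases, and its promoter has served as a reporter of pluripotency. Tcl1 encodes a coactivator of the AKT kinases that supports the proliferation of ESCs. Pecam1 (CD31) and Jam2 (JAM-B) encode adhesion receptors of the immunoglobulin family, known from endothelial cells, platelets and leukocytes and from cell junctions, and both have been used as surface markers of naive cells. Loss of such transcripts is a usual sign that cells have left the naive state.

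The 5 genes lie on 5 chromosomes of GRCm38. Dppa3 is at chr6:122626410-122630272 on the plus strand, with 892 exonic bases. Tcl1 is at chr12:105216750-105222793 on the minus strand, with 1845 exonic bases. Pecam1 occupies chr11:106654217-106750628 on the minus strand, with 6228, and Jam2 chr16:84774123-84825928 on the plus strand, with 5872. None shared exonic bases with another gene. A processed pseudogene, Dppa3-ps, matched Dppa3 transcripts over 451 bases at 98.2% identity and was not analysed here. Fragments mapping to several places were counted at each, so Dppa3 counts could hold some of its fragments. The other 4 genes had no transcript of another gene matching over at least 200 bases at 95% identity or more.

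The promoter of 1 of the 5 genes was in the RefSeq promoter table and is shown because Tcl1 had counts in every sample of 4 groups and 0 in every sample of the other 2. The stretch chr12:105222688-105222987 (GRCm38.p6, minus strand) runs from 250 bases before to 50 bases after the RefSeq start of the gene, with matches to the GC box and the KLF motif in capitals.
Tcl1: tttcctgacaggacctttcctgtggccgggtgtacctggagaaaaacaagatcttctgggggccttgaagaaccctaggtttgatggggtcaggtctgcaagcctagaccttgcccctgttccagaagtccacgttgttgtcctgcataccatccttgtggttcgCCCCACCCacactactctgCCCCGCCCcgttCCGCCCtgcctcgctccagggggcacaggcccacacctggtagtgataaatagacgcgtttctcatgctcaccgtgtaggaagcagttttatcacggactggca
Both strands were searched. GGGCGG (GC box) matched 2 times, at -64 and -54 from the start, and 35.7% of 32851 promoters held it. GGGNGNGG (KLF) matched 2 times, at -85 and -66, the latter overlapping a GC box, and 49.5% of promoters held it. There were 0 matches in this window to TATAAA, the TATA box, to ATGCAAAT, the octamer, or to CATTGTT, the SOX motif. The same held for AAGGTCA, the ESRRB motif, for TTCCNGGAA, the STAT motif, and for ATCAAAG, the motif of TCF and LEF factors. It held 11 CG pairs against a median of 7 over all promoters, and 39.6% of promoters held more.

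Total counts per sample ran from 4961934 to 18071600. The ESC-ASC samples held 17813619 to 18071600 and all others at most 9906473, and replicate 1 of the ESCs was the shallowest. Levels below are normalised read counts, meaning counts divided by a size factor for depth and by exonic length in kb. A gene was called changed at an adjusted p below 0.05 (edgeR quasi-likelihood test, Benjamini-Hochberg over all genes tested) with a log2 fold change beyond 1. Marker lists were checked against the labels. The levels of 10 naive transcription factor genes summed to 10970 to 11500 per sample in ESCs, 7581 to 9698 in ASCs, 5430 to 5986 in ESC-ASCs, 414 to 513 in EpiLCs, 813 to 947 in AFSCs and 1316 to 1646 in EpiSCs, where Nanog made up most of the sum.

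Each of the 5 genes was higher in ESCs, ASCs and ESC-ASCs than in AFSCs and EpiSCs. Of the 5, 4 were also called higher in each of those groups than in EpiLCs, and Dppa3 was called higher than in EpiLCs in ESCs alone. Dppa3 was the exception in 2 ways: its mean in ASCs was 10.3% of that in ESCs, and its mean in EpiLCs was within a 2-fold change of that in ASCs. The plot of levels by sample shows both patterns.

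**Figure D1:**
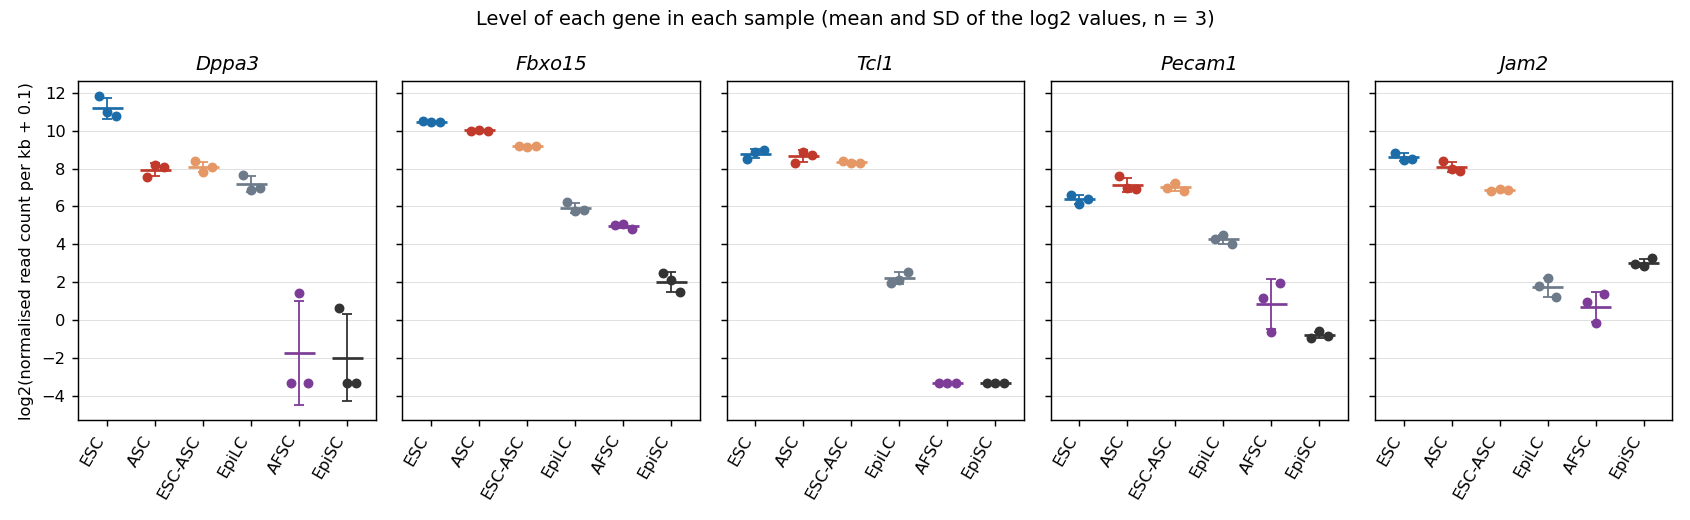
Level of each gene in each of the 18 samples, as log2 of the normalised read count per kb plus 0.1, with the mean and SD of the log2 values for the 3 samples of each group. The 3 left-hand groups (ESC, ASC and ESC-ASC) sit above the 3 right-hand groups for every gene except that Dppa3 in EpiLC lies near the ASC and ESC-ASC samples; values at the bottom of the Dppa3 and Tcl1 panels are samples with 0 counts.

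Dppa3, the maternal-effect gene of the list, had normalised read counts per kb of 3580, 1992 and 1743 in the ESC samples. In ASCs it had 189, 296 and 271, in ESC-ASCs 332, 224 and 268, and in EpiLCs 205, 118 and 127. The ESC samples did not overlap any other group, and the highest EpiLC sample lay above the lowest ASC sample. Replicate 1 of the ESCs, the shallowest library, had the highest level. Without it the ESC mean was 1868 in place of 2439 ± 997 (SD, n = 3).

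AFSCs held 0, 2 and 0 fragments of Dppa3 and EpiSCs 1, 0 and 0. The mean level in ESCs ranked above 98.6% of all genes tested, and that in AFSCs above 8.72%. With 630 counts over the ASC samples against 2 over the AFSC samples, the ratio of levels was 289, with a 95% exact interval of 79.7 to 2393 that covers counting error only. Against the single count in EpiSCs the ratio was 662, with an interval of 118 to 26190. Reads without molecular identifiers are not independent molecules, so these intervals understate the error.

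Fbxo15, the F-box gene, lies on the plus strand of chromosome 18 from 84935158 to 84981376, with 1437 exonic bases. Its levels differed little between replicates. ESC samples had 1467, 1415 and 1403 normalised read counts per kb, ASC samples 1007, 1061 and 1025, and ESC-ASC samples 585, 560 and 579. Those 3 groups did not overlap one another. EpiLCs had 75.6, 54.8 and 55.1, AFSCs 32.8, 33.0 and 28.1, and EpiSCs 5.48, 4.29 and 2.66. The order ESC, ASC, ESC-ASC, EpiLC, AFSC, EpiSC held sample by sample, and each neighbouring pair differed at an adjusted p of at most 0.00203 (edgeR). Jam2 was the other gene whose steps all had an adjusted p below 0.05, with a largest value of 0.0342 (edgeR). The Fbxo15 steps from ESC to ASC (0.49), ASC to ESC-ASC (0.84) and EpiLC to AFSC (0.98, log2) were inside a 2-fold change. Fbxo15 also remained detectable in primed cells, with 35, 41 and 39 counts in AFSCs.

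Tcl1, the AKT coactivator, was either abundant or nearly absent. ESCs had 365, 469 and 496 normalised read counts per kb, ASCs 316, 476 and 427, and ESC-ASCs 340, 311 and 312. These 3 groups overlapped. EpiLCs had 6, 9 and 10 fragments in all, or 4.62 ± 1.06 (SD, n = 3) normalised read counts per kb. AFSCs and EpiSCs had 0 in each of their 6 samples, which allows at most 0.632 and 0.552 normalised read counts per kb at 3 counts over the group. Tcl1 was therefore at least 644-fold higher in ASCs than in AFSCs, at least 507-fold higher in ESC-ASCs and at least 722-fold higher in ESCs. From EpiLCs, with 25 fragments, the bound was at least 7.31-fold over AFSCs.

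Pecam1, the first of the surface receptors, had its highest mean outside the ESCs. ASC samples had 192, 123 and 119 normalised read counts per kb, ESC-ASC samples 128, 152 and 112, and ESC samples 97.4, 70.8 and 83.3. The ASC and ESC-ASC samples overlapped, and all 6 lay above the ESC samples. EpiLCs had 19.3, 22.4 and 16.3, and AFSCs 2.16, 0.558 and 3.83. EpiSCs had 0.421, 0.566 and 0.460, from 2 to 4 fragments a sample, and lay below or, for 1 sample, just above the lowest AFSC sample.

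Jam2, the other surface receptor, was highest in ESCs with 460, 346 and 365 normalised read counts per kb. ASCs had 336, 248 and 235, and ESC-ASCs 113, 121 and 115. The 3 groups did not overlap. At the low end it departed from the other 4 genes, because EpiSCs had more than EpiLCs and AFSCs: 7.60, 7.05 and 9.43 against 3.35, 4.52 and 2.19, and against 1.84, 0.789 and 2.47. No EpiSC sample overlapped the AFSC or EpiLC samples.

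Taking the ESC mean as 100%, ASCs held 72.2% of Fbxo15, 91.7% of Tcl1, 173% of Pecam1 and 69.9% of Jam2, but 10.3% of Dppa3. ESC-ASCs held 40.2%, 72.4%, 156%, 29.8% and 11.3% of the same genes in the same order. EpiLCs held 23.1% of Pecam1, 6.15% of Dppa3, 4.33% of Fbxo15, 1.04% of Tcl1 and 0.859% of Jam2. The highest value in AFSCs or EpiSCs was 2.60%, for Pecam1 in AFSCs.

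**Figure D2:**
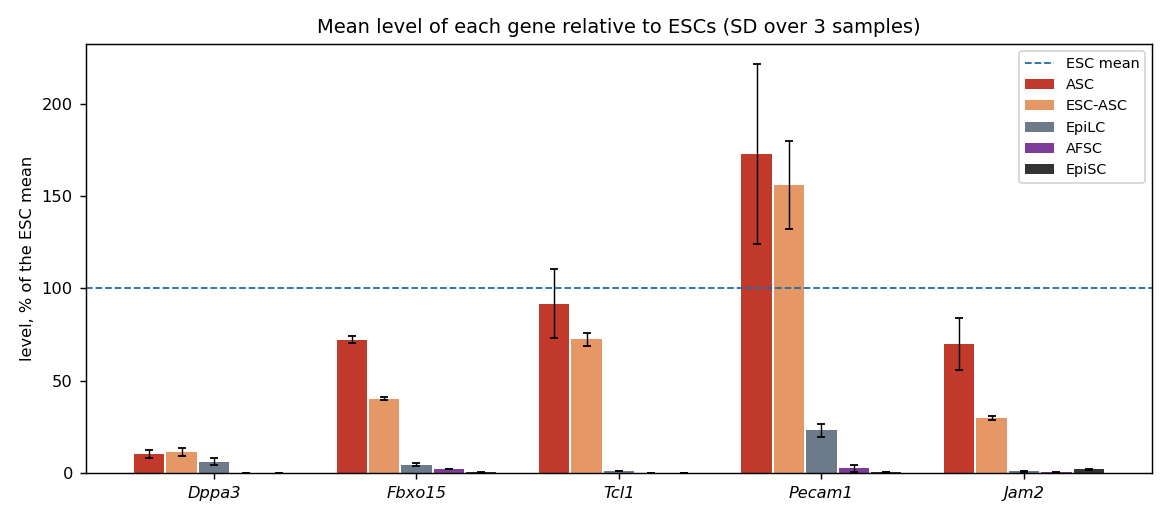
Mean level of each gene in 5 groups as a percentage of its mean in ESCs (dashed line), with the SD over 3 samples on the same scale. Dppa3 stands at 10.3% in ASCs and 11.3% in ESC-ASCs, Pecam1 at 173% and 156%, and AFSCs and EpiSCs stay at or below 2.60% for all 5 genes.

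The first comparison asked what changed when AFSCs were turned into ASCs in ABCL medium. All 5 genes rose, whereas 22.7% of all genes tested were called higher in ASCs and 16.7% lower. Dppa3, Tcl1, Pecam1 and Jam2 passed the filter on counts through other groups, with at most 23 counts in any AFSC sample. Dppa3 and Tcl1, with at most 2, could hardly have come out lower in ASCs, and Pecam1 and Jam2 had little room to. The log2 fold changes were 7.95 ± 0.60 (SE) for Dppa3, 5.02 ± 0.15 for Fbxo15, 5.98 ± 0.33 for Pecam1 and 7.27 ± 0.28 for Jam2. The largest adjusted p of the 5, for Dppa3, was 1.68e-09 (edgeR). The fitted value of Tcl1 rests on 0 counts in AFSCs and only its bound is given. The median over the 5 genes was 7.27 against 0.02 over all genes tested. The size of the Dppa3 value depended on the 2 fragments in replicate 2 of the AFSCs: without that sample it was 10.93, and without replicate 3, 7.34. Pecam1 gave 6.74 without replicate 3 of the AFSCs, which held 23 of its 36 counts.

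ASCs also exceeded EpiSCs for 5 of 5 genes, with 25.6% of all genes tested called higher. All but Jam2 had at most 7 counts in any EpiSC sample, so they could hardly have come out lower in ASCs. Fbxo15 differed by 7.96 ± 0.19 (log2, SE), Pecam1 by 8.14 ± 0.40 and Jam2 by 5.07 ± 0.23. The study named Dppa3, Fbxo15 and Tcl1 as higher in ASCs than in EpiSCs on these same samples, so that direction is not independent evidence. Against EpiLCs, 4 of 5 were called higher in ASCs (20.7% of all genes tested). The differences were 2.87 ± 0.25 for Pecam1, 4.04 ± 0.14 for Fbxo15, 6.29 ± 0.25 for Jam2 and 6.41 ± 0.25 for Tcl1. Dppa3 differed by 0.73 ± 0.28 with an adjusted p of 0.0319 (edgeR), short of a 2-fold change. Its adjusted p was 0.111 without replicate 2 of the ASCs, 0.0812 without their replicate 3, 0.127 without replicate 2 of the EpiLCs and 0.107 without their replicate 3, with values from 0.58 to 0.67. Without replicate 1 of the EpiLCs it was 1.06 with an adjusted p of 0.00723, and 5 of 5 genes were called.

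The second comparison set ASCs beside naive ESCs, from which they differ in both medium and origin. Of the 5 genes, 1 was called, against 25.8% of all genes tested. Dppa3 was lower in ASCs by a log2 fold change of -3.29 ± 0.28, or 9.77-fold in the fit, with an adjusted p of 2.93e-08 (edgeR). Without replicate 1 of the ESCs it was -2.93. The others stayed inside a 2-fold change: Fbxo15 at -0.49 ± 0.12, Jam2 at -0.53 ± 0.18 and Pecam1 at 0.77 ± 0.23 passed the threshold on p but not on size. Tcl1 differed by -0.15 with a 95% interval of -0.50 to 0.19 and an adjusted p of 0.456. The Pecam1 value was 0.52 with an adjusted p of 0.0683 without replicate 1 of the ASCs, and 0.67 with 0.0502 without replicate 2 of the ESCs. The Jam2 value had an adjusted p of 0.0697, 0.0853 and 0.0746 without replicate 2 or 3 of the ASCs or replicate 1 of the ESCs.

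ESC-ASCs were compared with ESCs, the kind of cell they were made from. The study converted 2 ESC lines, and which line gave the sequenced ESCs or ESC-ASCs is not given in the sources used here. A difference between lines could therefore not be told apart from a change with the medium. Here 3 of the 5 genes fell, while 36.4% of all genes tested were called in either direction. Dppa3 changed by -3.16 ± 0.27 on the log2 scale, Jam2 by -1.76 ± 0.18 and Fbxo15 by -1.33 ± 0.12, with adjusted p of at most 1.38e-07 (edgeR). Tcl1, at -0.49 ± 0.16, and Pecam1, at 0.63 ± 0.23, had adjusted p of 0.0170 and 0.0231 and were inside a 2-fold change. Those adjusted p rose to 0.0596 to 0.0775 for Tcl1 without any 1 of ESC replicates 2 and 3 and ESC-ASC replicates 2 and 3. For Pecam1 they rose to 0.0984, 0.0570 and 0.0854 without ESC replicate 2, ESC replicate 3 or ESC-ASC replicate 2. All ESC-ASC libraries were deeper than all ESC libraries, so depth and group cannot be told apart here.

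Whether the genes moved differently in the 2 routes into ABCL medium was tested as a difference of differences. The change from AFSCs to ASCs minus the change from ESCs to ESC-ASCs was called for 5 of 5 genes, and for 45.2% of all genes tested. It was 11.11 ± 0.63 for Dppa3, 6.34 ± 0.19 for Fbxo15, 5.35 ± 0.41 for Pecam1 and 9.03 ± 0.33 for Jam2 on the log2 scale, with adjusted p of at most 1.65e-09 (edgeR). Dppa3, Fbxo15 and Jam2 rose from AFSCs and fell from ESCs. The same contrast is ESCs against AFSCs added to ASCs against ESC-ASCs, so the gap between the starting levels is part of it. The value for Dppa3 was 14.09 without replicate 2 of the AFSCs and 10.50 without replicate 3, and that for Pecam1 was 6.11 without replicate 3.

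The end points, ASCs and ESC-ASCs, were then compared directly. Of the 5 genes 1 was called, against 24.5% of all genes tested. Jam2 was higher in ASCs by 1.22 ± 0.18 with an adjusted p of 1.97e-05 (edgeR). Fbxo15 was 0.84 ± 0.12 higher on the log2 scale with an adjusted p of 1.25e-05, inside a 2-fold change. Dppa3 differed by -0.13 (95% interval -0.69 to 0.42), Pecam1 by 0.14 (-0.33 to 0.61) and Tcl1 by 0.33 (-0.01 to 0.68), with adjusted p of 0.698, 0.629 and 0.0964. Tcl1 gave 0.49 with an adjusted p of 0.0150 without replicate 1 of the ASCs. The direction for Dppa3 turned without that sample (0.039) or without replicate 1 of the ESC-ASCs (0.012), and so did that for Pecam1 without replicate 1 of the ASCs (-0.12).

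**Figure D3:**
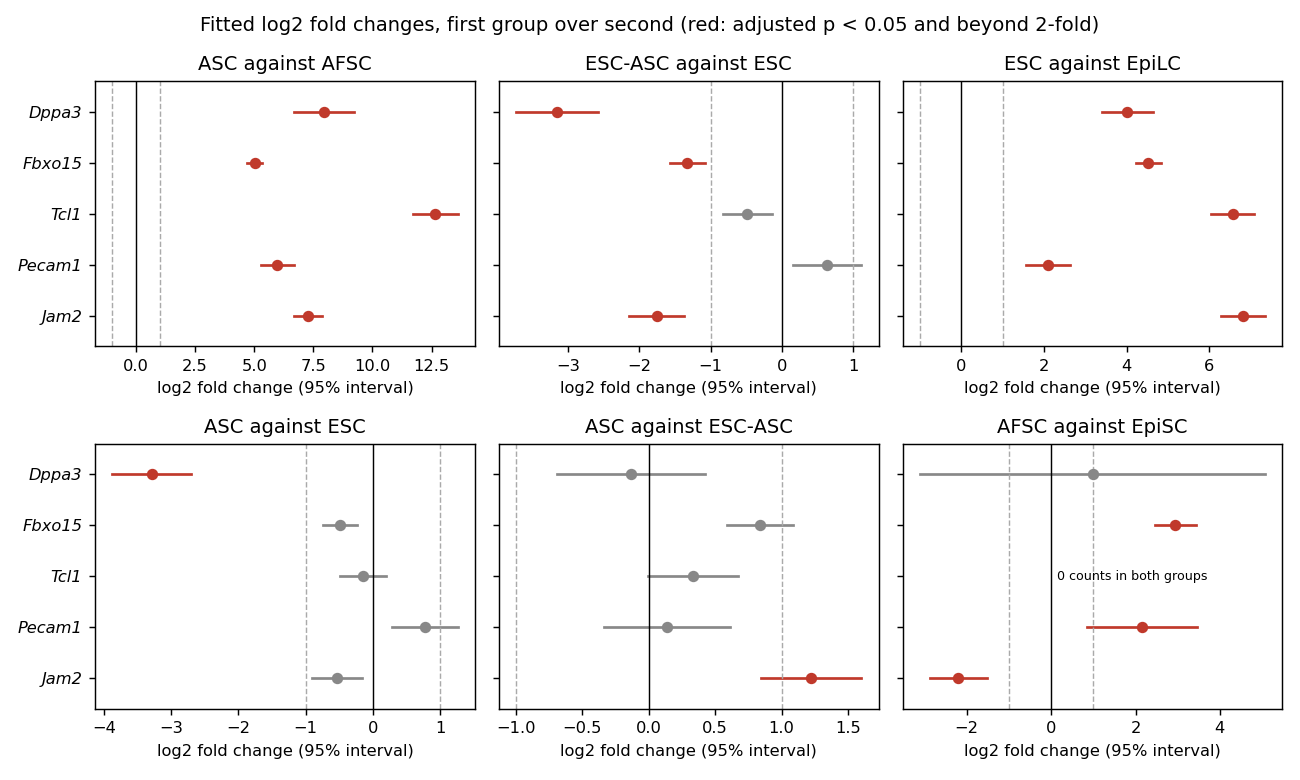
Fitted log2 fold change of each gene in 6 comparisons, with 95% intervals (edgeR) and each panel on its own axis; dashed lines mark 2-fold changes and red points passed both thresholds. All 5 genes are red in ASC against AFSC and in ESC against EpiLC, while in ASC against ESC the one red point is Dppa3 at -3.29; the Tcl1 point in ASC against AFSC rests on 0 counts in AFSC and is not a measured size.

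ESC-ASCs were also set beside AFSCs, EpiSCs and EpiLCs. In ESC-ASCs 5 of 5 genes were called higher than in AFSCs (23.2% of all genes tested), 5 of 5 higher than in EpiSCs (26.7%) and 4 of 5 higher than in EpiLCs (19.6%). Fbxo15 exceeded AFSCs by 4.18 ± 0.15, Pecam1 by 5.84 ± 0.33 and Jam2 by 6.05 ± 0.27. Dppa3 exceeded EpiLCs by 0.86 ± 0.27 with an adjusted p of 0.0104 (edgeR), inside a 2-fold change, and by 0.71 with an adjusted p of 0.0575 without replicate 2 of the EpiLCs. Without replicate 1 of the EpiLCs it was 1.18 with an adjusted p of 0.00266, and without replicate 2 of the ESC-ASCs 1.04 with 0.00697, and each made 5 of 5 genes called. These comparisons share their AFSC, EpiSC and EpiLC samples with those of the ASCs. The limit from few counts in AFSCs and EpiSCs holds for them as well.

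ESCs were next set beside EpiLCs, which model the cells that have just left the naive state. All 5 genes were higher in ESCs, against 15.9% of all genes tested called higher and 18% called lower. Pecam1 differed least, by 2.10 ± 0.25 (log2, SE), followed by Dppa3 at 4.02 ± 0.29, Fbxo15 at 4.53 ± 0.14, Tcl1 at 6.56 ± 0.25 and Jam2 at 6.82 ± 0.25. The largest adjusted p was 8.43e-07 (edgeR), for Pecam1. The median over the 5 genes was 4.53 against -0.06 over all genes tested. ESCs also exceeded AFSCs for 5 of 5 genes (19.6% of all genes tested) and EpiSCs for 5 of 5 (22%). The limit from few counts in AFSCs and EpiSCs holds here too. Fbxo15 differed from AFSCs by 5.51 ± 0.15 and from EpiSCs by 8.45 ± 0.19.

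EpiLCs, AFSCs and EpiSCs differed among themselves. EpiLCs against AFSCs had 3 of 5 genes called, all higher in EpiLCs, against 26.1% of all genes tested: Dppa3 at 7.22 ± 0.63, Pecam1 at 3.11 ± 0.35 and Tcl1, given above as a bound. Few counts in AFSCs left these genes little room to come out lower in EpiLCs. Fbxo15 and Jam2 each differed by 0.98, just inside a 2-fold change, with adjusted p of 3.90e-05 and 0.0342 (edgeR). Without replicate 3 of the EpiLCs both passed, and 5 of 5 genes were called. With 1.01 to 1.06 Fbxo15 also passed without AFSC replicate 1, AFSC replicate 2 or EpiLC replicate 2, and Jam2 did so without AFSC replicate 3, at 1.40, which made 4 of 5 in each case. The Jam2 adjusted p was 0.0607 without AFSC replicate 1, 0.171 without AFSC replicate 2, 0.0620 without EpiLC replicate 1 and 0.198 without EpiLC replicate 2. Without replicate 2 of the AFSCs Dppa3 gave 10.20, without replicate 3 of the AFSCs Dppa3 gave 6.61 and Pecam1 3.87.

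Between EpiLCs and EpiSCs all 5 genes were called (28.6% of all genes tested in either direction). Dppa3, Fbxo15, Tcl1 and Pecam1 were higher in EpiLCs, Fbxo15 by 3.92 ± 0.21 and Pecam1 by 5.27 ± 0.44 on the log2 scale. Each of these had at most 7 counts in any EpiSC sample and little room to come out lower in EpiLCs. Jam2 was lower in EpiLCs by -1.22 ± 0.28 with an adjusted p of 0.00116 (edgeR), and by -0.99, just inside a 2-fold change, without replicate 3 of the EpiLCs. Between AFSCs and EpiSCs 3 of 5 were called (20.8%). Fbxo15, at 2.94 ± 0.23, and Pecam1, at 2.16 ± 0.62, were higher in AFSCs, and Jam2 was lower there by -2.20 ± 0.32. Pecam1 gave 1.40 with an adjusted p of 0.134 without replicate 3 of the AFSCs. For Dppa3, with 2 counts against 1, and Tcl1, with none, a difference between these groups was not detectable at this depth.

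Across the 18 samples the 5 genes varied together, though not equally. Pearson's r of the log2 levels was highest between Tcl1 and Pecam1, at 0.962, and lowest between Dppa3 and Jam2, at 0.721. The values describe 18 points that fall into 6 groups and share libraries, so they carry no p. For Tcl1, 99.5% of all genes tested had a lower r than Pecam1 had, and for Dppa3, 89.2% had a lower r than Jam2 had.

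The genes whose levels were most like each of them over the same 18 samples were found by the same measure. For Dppa3 the nearest was Zp3, a zona pellucida gene of the oocyte, with an r of 0.973, followed by Aldh3a1, Foxr1, Trim25 and Rpl10l, down to 0.962. Zp3, like Dppa3, was at or near 0 in AFSCs and EpiSCs, with at most 1 count in any of those samples. For Fbxo15 the nearest was Adap1, at 0.988, and Glb1, Gramd1b and Pim1, a serine/threonine kinase, were also among the nearest, down to 0.980. Tcl1 was followed by Gm1070 at 0.992 and then by Mybl2, Laptm5, Aqp3 and Platr26, with 0.986 for the last. Pecam1 was nearest to AU018091, at 0.983, then 1700097N02Rik, Gpa33, Slfn9 and Ttc39b. Jam2 was nearest to Usp49, at 0.984, then Brwd1, Gm15873, Prdm14, a naive transcription factor, and Fzd5, a Wnt receptor. None of the 5 genes was among the 5 nearest of another.

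The neighbours of Dppa3 on chromosome 6 were taken next, since Gdf3, Dppa3, Nanog and Slc2a3 lie together there. From AFSCs to ASCs Slc2a3, a glucose transporter, rose by 3.19 ± 0.26, Nanog, a core transcription factor of naive cells, by 1.82 ± 0.16 and Gdf3, a TGF-beta family ligand, by 1.74 ± 0.19. Foxj2, at 0.62 ± 0.22, and Apobec1, a cytidine deaminase, at -0.07 ± 0.22, were not called.

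In ESCs against EpiLCs Nanog was higher by 4.22 ± 0.18, close to the 4.02 of Dppa3, Slc2a3 by 2.26 ± 0.25 and Foxj2 by 1.34 ± 0.23, while Gdf3 (0.46 ± 0.18) and Apobec1 (0.31 ± 0.23) were not called. From ESCs to ESC-ASCs the neighbours went different ways. Gdf3 fell by 1.74 and Nanog by 1.29 on the log2 scale, Slc2a3 rose by 1.26, and Dppa3 fell by 3.16. In ASCs against ESCs Slc2a3 was the one neighbour called, at 1.61, and Nanog stood at -0.64. The plot of distance from Dppa3 shows these values along the chromosome.

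**Figure D4:**
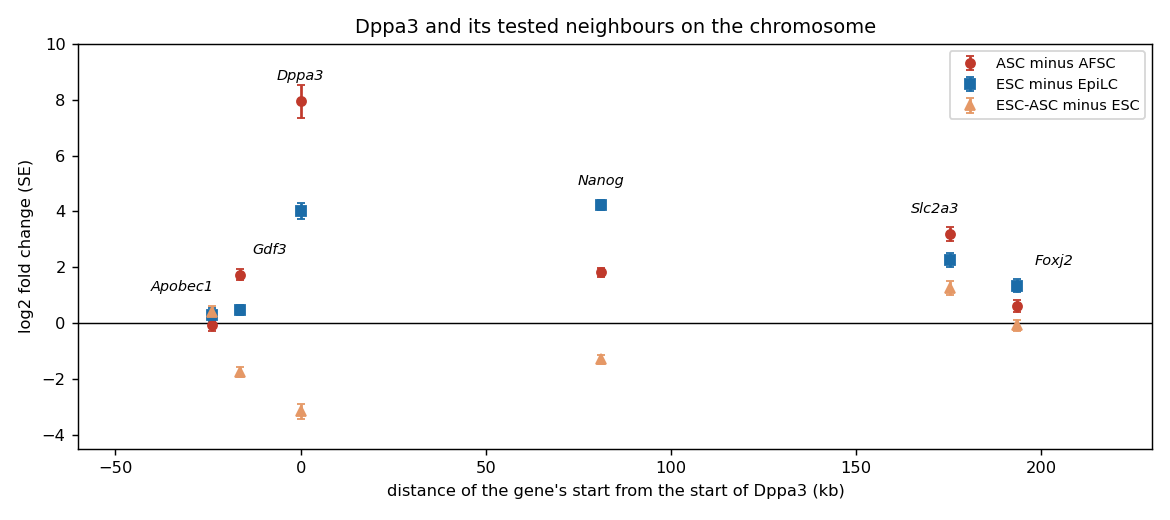
Log2 fold changes, with SE, of Dppa3 and its 5 tested neighbours in 3 comparisons, against the distance of each gene's start from that of Dppa3 in kb. Dppa3 has the largest rise from AFSC to ASC (7.95) and the largest fall from ESC to ESC-ASC (3.16), and Slc2a3 at 175 kb is higher in the first-named group in all 3 comparisons.

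Genes linked to the same functions were read from lists. Of 6 other Dppa and methylation maintenance genes 5 were tested, and 4 were higher in ASCs than in AFSCs, with a median of 6.66. Of all genes tested, 22.7% were called higher. Dppa2 and Dppa4 had at most 8 counts in any AFSC sample and little room to come out lower in ASCs. Dppa5a rose by 9.92 and Uhrf1, the partner of the maintenance methyltransferase, by 1.19, while Dnmt1, the methyltransferase itself, stood at 0.86. In ASCs against ESCs, where Dppa3 was lower, Dppa5a differed by 0.00, Uhrf1 by -0.28 and Dnmt1 by -0.09, none of them called. Dppa2, an activator of early embryonic genes, was higher in ASCs by 1.82.

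Of 14 maternal-effect and oocyte genes 8 were tested. In ASCs against AFSCs 7 were higher and 0 lower (22.7% of all genes tested were called higher), with a median of 3.40 when the 2 genes without counts in AFSCs were set at their bound. Ooep, Nlrp14, Khdc3, Zp3 and Padi6 had at most 1 count in any AFSC sample. They passed the filter on counts through other groups, so they could hardly have come out lower in ASCs. Ooep, of the subcortical maternal complex, was without a count in AFSCs and was at least 889-fold higher in ASCs. Khdc3, of the same complex, was lower in ASCs than in ESCs by -2.65, the one gene of this list called lower in that comparison. Zfp57, a zinc finger protein that protects imprints, was at -0.65 with an adjusted p of 0.0328 (edgeR), inside a 2-fold change, while Zp3 stood at -0.47 and was not called. In ESCs against EpiLCs 5 were higher and 1 lower (15.9% and 18% of all genes tested), with Khdc3 at 8.18 and Nlrp14 at -2.37. The 6 genes that mark 2-cell-like cells were all higher in ASCs than in ESCs, with a median of 5.86 with 1 gene at its bound. Of all genes tested, 25.8% were called in either direction in that comparison. All but Zscan4c had at most 5 counts in any ESC sample, so they passed the filter through other groups. Those could hardly have come out lower in ASCs. All 6 were higher in ASCs than in AFSCs as well, against 22.7% of all genes tested. In AFSCs 4 of the 6 had no count and the others at most 4 in any sample, so the same limit holds. The summed level of these 6 genes was 1098 to 1293 in ASCs against 12.5 to 17.8 in ESCs and at most 2.37 in AFSCs. It was 76.7 to 106.8 in ESC-ASCs, 61.3 to 93.7 in EpiLCs and at most 0.42 in EpiSCs. Dppa3 is also a gene of early embryos, and the part of such cells in its level was not tested.

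The relatives of Tcl1 did not share its level. Tcl1b1 to Tcl1b5 had too few counts to be tested, and the highest was 12 counts of Tcl1b2 in 1 ESC sample. Mtcp1, a related gene on another chromosome, had 8.47 ± 2.20 normalised read counts per kb in ASCs and 6.81 ± 0.75 in AFSCs (SD, n = 3), a log2 fold change of 0.29 that was not called. It was lower in ESCs than in EpiLCs by -2.05, opposite to Tcl1, and higher in ESC-ASCs than in ESCs by 2.19. Of 9 genes of the AKT pathway 3 were higher and 1 lower in ASCs than in AFSCs, with a median of 0.58. Of all genes tested, 22.7% were called higher and 16.7% lower. Pdpk1, the kinase that activates AKT, rose by 1.57, and Eras, a Ras protein of ESCs, fell by 1.21. Akt1 differed by -0.06. Of 10 genes of the SCF ubiquitin ligase, in which Fbxo15 would act, 0 were higher and 2 lower, with a median of -0.15. Nedd8 changed by -1.14 and Rbx1 by -1.34.

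The surface receptors were read beside other adhesion genes, of which 14 of 16 were tested. In ASCs against AFSCs 3 were higher (Icam1, Ncam1 and Pvr) and 1, Epcam, was lower, with a median of -0.05. The shares of all genes tested were 22.7% and 16.7%. Icam1, an immunoglobulin-family receptor, rose by 2.25 and Epcam fell by 1.20. Jam3 and F11r, the other junctional adhesion molecules, stood at 0.94 and -0.53, and Cdh1 (E-cadherin) at -0.05, none of them called. In ASCs against ESCs 0 of the 14 were called (25.8% of all genes tested). In ESCs against EpiLCs 5 were higher and 2 lower (15.9% and 18%), with Icam1 at 3.04 and Epcam at -1.34.

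Pecam1 and Jam2 also mark endothelial and blood cells. Of 11 endothelial markers 7 were tested, of which 5 were higher in ASCs than in AFSCs and 1, Plvap at -1.73, was lower. Of all genes tested, 22.7% were called higher and 16.7% lower. Cd34, with 0 counts in AFSCs, was higher by at least 21.4-fold, Vwf by a log2 of 5.47, Eng by 4.24, Tek by 2.19 and Kdr by 1.24. Cd34 and Vwf, with at most 4 counts in any AFSC sample, could hardly have come out lower. The summed level of the 11 ran from 187 to 227 in ASCs, 190 to 223 in ESCs, 91.2 to 104 in ESC-ASCs, 81.9 to 87.9 in EpiLCs, 27.3 to 38.9 in AFSCs and 20.1 to 31.0 in EpiSCs. Most of it in ESCs, ASCs, ESC-ASCs and EpiLCs was Eng, and Cdh5, the defining cadherin of endothelium, had 0 to 5 counts per sample, with Emcn at 0 in every group. Vwf had 70 to 309 counts per sample in ESCs, ASCs and ESC-ASCs and at most 10 in the other groups. Of 7 blood cell markers 4 were tested and 0 were called in that comparison, with summed levels of at most 15.7 in ASCs and 14.7 in AFSCs, and Ptprc at 0 in ESCs, ASCs and ESC-ASCs. With bulk RNA, fewer cells expressing a gene and less RNA per cell cannot be told apart for any of the 5.

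Markers of other lineages were checked in the same way. Germ cell markers, some of them shared with naive cells, were higher in ASCs than in AFSCs for 6 of 7, Dazl by at least 630-fold. Of all genes tested, 22.7% were called higher in that comparison and 16.7% lower. Dazl and Mael had no count in AFSCs, and Ddx4 and Nanos3 at most 2 in any sample. These passed the filter through other groups and could hardly have come out lower in ASCs. The germ cell markers summed to 721 to 1022 in ESCs, 565 to 598 in ASCs and 417 to 431 in ESC-ASCs. The sums were 252 to 304 in EpiLCs, 32.0 to 65.2 in AFSCs and 35.7 to 56.8 in EpiSCs. Gene by gene they did not all move with the 5 genes. In ESCs against EpiLCs 4 were higher and 3 lower (15.9% and 18% of all genes tested), with Mael at -4.80. In ESC-ASCs against ESCs 3 were higher and 2 lower (36.4% of all genes tested were called in either direction). The part of germ cell markers in the result was not tested. Of the other lists in ASCs against AFSCs, 3 of 6 fibroblast markers tested were higher and 2 lower, 3 of 5 primitive endoderm markers were higher and 1 lower, and Cdx2 of 2 trophoblast markers tested was higher (4.46) with Gcm1 lower (-1.73). The 10 naive transcription factors were all higher, from 1.82 for Nanog to 11.46 for Tbx3. Prdm14 had no count in AFSCs, and Nr0b1, Tbx3 and Zfp42 at most 2 in any sample, so these could hardly have come out lower. In the same comparison 8 of 9 formative and primed genes were lower. Of 4 core pluripotency genes 1, Sox2 at 1.63, was higher and 1, Utf1 at -1.06, lower.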

How the data were processed

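Directional polyA libraries of 18 samples, 3 for each of 6 labelled groups, were sequenced as paired ends. The authors aligned reads to GRCm38 (TopHat2), assigned fragments to Ensembl exons (featureCounts 1.5.0-p1) and deposited unnormalised counts per gene. Fragments at several places were counted at each, both ends had to map, and strand was not used. A symbol was found for 35514 of 35773 genes. Genes reaching 10 counts in 3 or more samples, 16901 in all, were tested with edgeR 4.0.16 in R 4.3.3 (TMM factors, 1 quasi-likelihood fit over all 18 samples, Benjamini-Hochberg within each comparison). For levels, counts were scaled by size factors from DESeq2 1.42.0 and by exonic kb, with a pseudocount of 0.1 on the log2 scale. SE belongs to log2 fold changes and SD to levels. Similar transcripts were sought with BLAST 2.17.0. The tests were also run on simulated counts with moderate changes in well-counted genes, a setting that does not cover genes with few or no counts.

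The 5 genes, the gene lists and the tests were chosen with earlier results of these data known. Named were the 5 genes in every comparison, the 5 most correlated with each, the TCL1 family, the neighbours of Dppa3 and, from each other list, the called genes with the largest and smallest change in ASC against AFSC or ESC against EpiLC. Further list genes were named after their values were seen. Some genes that this rule takes are not reported here. The labels number replicates alike in all groups, but deviations of same-numbered samples from their group means had a mean correlation of 0.0539 (45 pairs, 16 above 0.1), so the numbers were not taken as pairs. Alternatives were DESeq2, RLE factors, other filters and call rules, a replicate block, fewer groups and leaving out each sample. Total counts of 4961934 to 18071600 per sample set the precision. The exact intervals on ratios of counts and the floors cover counting error only, while the edgeR intervals also hold the spread between samples. Bisulfite data were not used here.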

Additional observations from a re-analysis of the deposited data

Results flagged for a closer look

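For all 5 genes the change from AFSCs to ASCs differed from the change from ESCs to ESC-ASCs by the test of that difference (edgeR, adjusted p at most 1.65e-09). On the log2 scale the difference was 11.11 for Dppa3, 6.34 for Fbxo15, 5.35 for Pecam1 and 9.03 for Jam2. The fitted 13.14 for Tcl1 rests on 0 counts in AFSCs and depends on the prior count of the fit. The contrast is also ESCs against AFSCs added to ASCs against ESC-ASCs, so the gap between the starting levels enters it directly. ESCs against AFSCs alone gave 11.24 for Dppa3, 5.51 for Fbxo15, 5.21 for Pecam1 and 7.80 for Jam2. AFSCs held at most 2.60% of the ESC mean of each gene. The call therefore cannot separate the routes from the starting levels.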

How the results depend on the processing

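Of the recomputed log2 fold changes 1825 kept their direction and side of the threshold on p, 26 were no longer past it, 1 was newly past it and 5, none of which had passed it, changed sign, while every one under DESeq2, RLE factors, no filter or the replicate block kept both (Dppa3 in ASCs against ESCs was -3.21 with the replicate block). No gene of the 5 passed a filter of at least 10 counts in every sample, so that setting gave no value. For Jam2, ASCs against ESCs gave -0.49 without the ESC-ASC samples and -0.47 with only the 2 groups compared, and EpiLCs against AFSCs gave 0.96 in both, each past the threshold no longer. With no fold threshold the genes called were 4 in ASCs against ESCs, 2 in ASCs against ESC-ASCs, 5 in ESC-ASCs against ESCs and 5 in EpiLCs against AFSCs; beyond a log2 of 2 they were 0 in ASCs against ESC-ASCs and 1 in ESC-ASCs against ESCs. The cause was not tested. Leaving out 1 sample at a time gave, for Dppa3, 0.58 to 1.06 in ASCs against EpiLCs, -0.26 to 0.039 in ASCs against ESC-ASCs, 0.71 to 1.18 in ESC-ASCs against EpiLCs and -2.00 to 2.99 in AFSCs against EpiSCs. For Tcl1 it gave -0.28 to 0.000283 in ASCs against ESCs, 0.21 to 0.49 in ASCs against ESC-ASCs and -0.62 to -0.40 in ESC-ASCs against ESCs. For Pecam1 it gave 0.52 to 0.90, -0.12 to 0.28 and 0.53 to 0.75 in the same comparisons and 1.40 to 2.62 in AFSCs against EpiSCs. For Jam2 it gave -0.71 to -0.42 in ASCs against ESCs and 0.64 to 1.40 in EpiLCs against AFSCs, where 3 to 5 genes were called. Over all genes 3512 to 8227 were called per comparison, 6659 to 12196 with no fold threshold, 1534 to 4475 beyond a log2 of 2 and 1202 to 3913 with at least 10 counts in every sample. Depth limits Dppa3 and Tcl1 in AFSCs and EpiSCs, which held at most 2 counts per group.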
